A study of Canis lupus familiaris with 5 samples.

Results

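CLL-1390 is a canine lymphoid cell line that its depositors describe as a primitive T-cell leukemia, and it was 1 of 5 lines measured, each on 1 Affymetrix canine expression array. It was set against the 4 other lines, which are 17-71 (a B-lymphoid malignancy, labelled B-cell), CL-1 (a primitive a/b T-cell leukemia, labelled T-cell), GL-1 (a B-cell leukemia, labelled B-cell) and CLGL-90 (an LGL leukemia, labelled LGL T-cell). All 5 lines grew untreated in RPMI with fetal bovine serum, and biotin-labelled copies of their total RNA were hybridised. CLL-1390 was chosen by its label, and no measured value entered that choice. No line had a replicate array, so there is no test, SD or p-value below, and the line, its culture and its array cannot be told apart.

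A T-cell leukemia called primitive is usually one whose cells resemble early stages of T-cell development, before the full T-cell receptor complex is assembled. Blood progenitors carry the surface protein CD34, and the branches that lead to lymphocytes, to red cells and to the platelet-forming megakaryocytes share several transcription factors at that stage. Platelets carry clotting proteins, collagen receptors and a nitric oxide sensor that mature T cells largely lack. Endothelial cells share some of these genes.

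Values are log2 intensities per probe set, the group of short DNA probes that reads 1 transcript. A gene was read through its probe set of highest mean over the 5 arrays, provided that a probe set reached log2 7 on at least 1 array, and 10582 of 15115 genes passed (70.0%). The gap above is the value in CLL-1390 minus the highest of the other 4 lines, and the gap below is the lowest of those 4 minus CLL-1390. A gene is called at a gap of at least log2 2, which is 4-fold. The array has 59 control probe sets for sequences that dogs lack, and their highest value was 6.70 on the CLL-1390 array, against 6.60 on 17-71, 6.39 on CL-1, 6.66 on GL-1 and 6.76 on CLGL-90. A value under these has no size of its own, so a bounded gap is given where a described gene or probe set rests on such values. In it, any lower value is raised to the highest control of its own array. Levels of different probe sets were not compared with each other.

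The T-cell label was set against the T-lineage genes first. CD3D, a chain of the CD3 complex that signals for the T-cell receptor, lay at 10.89 in CLL-1390, against 5.14 in 17-71, 5.44 in CL-1, 9.78 in GL-1 and 13.51 in CLGL-90. LCK, the kinase that acts first after that receptor, lay at 11.44 in CLL-1390, against 5.58 in 17-71, 8.88 in CL-1, 10.65 in GL-1 and 11.78 in CLGL-90. CD7, an early T-lineage surface protein, lay at 9.25 in CLL-1390, against 5.96 in 17-71, 5.38 in CL-1, 8.92 in GL-1 and 10.31 in CLGL-90. All of these were high in CLL-1390, in CLGL-90 and also in GL-1, which is labelled B-cell, and CD3D and CD7 were under the controls in CL-1, which is labelled T-cell. CD3G, another CD3 chain, was high in the same 3 lines, at 8.86 in CLL-1390, against 5.75 in 17-71, 5.34 in CL-1, 10.01 in GL-1 and 12.69 in CLGL-90. Other defining T-cell genes were not raised in CLL-1390. CD2, an adhesion receptor, lay at 6.30 in CLL-1390, against 11.42 in 17-71, 6.15 in CL-1, 5.71 in GL-1 and 12.59 in CLGL-90, and CD247, the zeta chain of the receptor complex, at 6.58 in CLL-1390, against 5.68 in 17-71, 11.16 in CL-1, 5.85 in GL-1 and 10.64 in CLGL-90. CD4 (8.31 in CLL-1390, against 8.10 to 8.43 in the other lines) and CD5 (7.85 in CLL-1390, against 7.52 to 8.04 in the other lines) were flat over the 5 lines, which shows neither expression nor its absence, and CD8A read 6.33 in CLL-1390.

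Since GL-1 shares T-lineage genes with CLL-1390 against its own label, and CL-1 has some at background despite its label, the counts that follow are also given without each of them. CLL-1390 stood above every other line in 64 of the 10582 genes that passed (0.605%) and below every other line in 36 (0.34%). Without GL-1 the counts were 118 above and 59 below, and without CL-1 they were 81 above and 64 below. At a gap of at least log2 1 they were 209 (1.98%) and 172 (1.63%). The same count at log2 2 gave 115 above and 35 below in 17-71, 148 and 56 in CL-1, 52 and 21 in GL-1, and 106 and 24 in CLGL-90, so CLL-1390 had fewer genes of its own above than 3 of the 4 other lines. For 9158 genes (86.5%) CLL-1390 lay within log2 1 of the median of the other lines, and the median difference over all genes was 0.04. Over the 25194 probe sets that passed, the array of CLL-1390 correlated most with GL-1 (Pearson r = 0.866), then with CLGL-90 (0.828), 17-71 (0.805) and CL-1 (0.786), as a description with probe sets as points.

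The gaps above ran up to log2 7.19 (6.58 bounded), with a median of 2.84, and 28 of the 64 genes exceeded log2 3, 11 exceeded log2 4 and 6 exceeded log2 5. With values raised to the controls, 53 of the 64 still had a gap of log2 2. In 23 of the 64 genes all 4 other lines lay at or under their controls. The gaps below ran up to 6.80 (5.22 bounded), with a median of 2.60, and 27 of the 36 genes kept log2 2 once bounded. CLL-1390 itself was at or under its controls in 17 of those 36 genes. The line nearest to CLL-1390 was CLGL-90 in 26, GL-1 in 17, 17-71 in 14 and CL-1 in 7 of the genes above. Among the genes below it was GL-1 in 12, 17-71 in 9, CL-1 in 8 and CLGL-90 in 7.

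**Figure D1:**
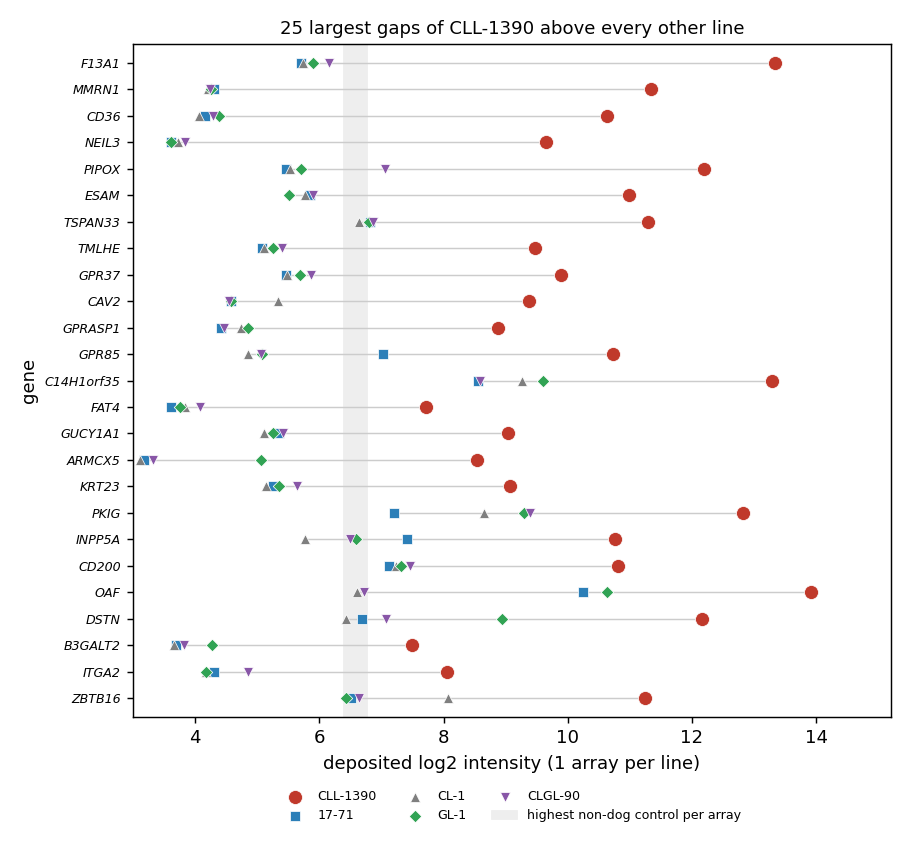
The 25 genes in which CLL-1390 stood furthest above every other line. Rows are genes and the horizontal axis is the deposited log2 intensity, with 1 point per line (1 array each) and a grey band spanning the top control values of the 5 arrays. CLL-1390 sits to the right in each row, by 7.19 for F13A1 and by 3.17 for ZBTB16, and in most rows the other lines lie in or left of the band.

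F13A1, MMRN1 and CD36, genes of platelets and megakaryocytes, gave the largest gaps of CLL-1390 among named genes by the probe sets used. NEIL3 (5.81) and PIPOX (5.15) came next, before ESAM. Once bounded, PIPOX (5.15) stood above MMRN1, and TSPAN33 (4.43) above ESAM and CD36. A further probe set of GPR37, given below, had a larger unbounded gap. So did a further probe set of ACTC1, named after its values were seen, at 7.71 (5.85 bounded). F13A1, the catalytic chain of the clotting factor that cross-links fibrin, lay at 13.34 in CLL-1390, against 5.70 in 17-71, 5.74 in CL-1, 5.90 in GL-1 and 6.15 in CLGL-90. The other lines lay under the controls and did not overlap CLL-1390, with a gap of 7.19 (6.58 bounded). Its further probe set gave 10.80 in CLL-1390, against 5.71 to 6.11 in the other lines, a gap of 4.69 (4.04 bounded). MMRN1, multimerin 1, a protein stored in platelets and in endothelial cells that binds clotting factor V, lay at 11.35 in CLL-1390, against 4.30 in 17-71, 4.21 in CL-1, 4.25 in GL-1 and 4.24 in CLGL-90. Its gap was 7.05, or 4.59 bounded, and it has no further probe set that passed. CD36, a receptor for thrombospondin and fatty acids on platelets, monocytes and small-vessel endothelium, lay at 10.64 in CLL-1390, against 4.16 in 17-71, 4.06 in CL-1, 4.39 in GL-1 and 4.28 in CLGL-90. All 4 others were again under the controls, with a gap of 6.25 (3.88 bounded). ESAM, an adhesion molecule of endothelial junctions and platelets, lay at 10.99 in CLL-1390, against 5.85 in 17-71, 5.77 in CL-1, 5.51 in GL-1 and 5.89 in CLGL-90, a gap of 5.10 (4.23 bounded).

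Smaller gaps were found for the nitric oxide sensor, a collagen receptor and a transcription factor. GUCY1A1, the alpha chain of the guanylate cyclase that senses nitric oxide, lay at 9.04 in CLL-1390, against 5.34 in 17-71, 5.10 in CL-1, 5.25 in GL-1 and 5.42 in CLGL-90, a gap of 3.62 (2.28 bounded). Its partner chain GUCY1B1, named after its values were seen, lay at 13.86 in CLL-1390, against 3.998 in 17-71, 11.92 in CL-1, 4.44 in GL-1 and 7.40 in CLGL-90, so CLL-1390 was highest but CL-1 also had a high value. CLL-1390 was the only line of the 5 in which both chains were above the controls of its array by at least log2 1. ITGA2, the alpha chain of a collagen receptor on platelets, lay at 8.05 in CLL-1390, against 4.29 in 17-71, 4.17 in CL-1, 4.17 in GL-1 and 4.84 in CLGL-90, and its gap of 3.21 became 1.29 once bounded. GFI1B, a repressor needed to form red cells and megakaryocytes, lay at 11.49 in CLL-1390, against 7.34 in 17-71, 6.45 in CL-1, 9.42 in GL-1 and 6.94 in CLGL-90, a gap of 2.08 to GL-1, which stood above the remaining lines.

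The platelet list was called in part. Of its 33 members on the array, 24 passed, 6 were called above (GUCY1A1, F13A1, MMRN1, CD36, ESAM and GFI1B) and 0 below, against 0.605% and 0.34% of all genes. F13A1, MMRN1, CD36 and ESAM are also marker genes, and markers and lists were chosen with earlier results of these data known. The count is therefore a description and no test of the list. Several members passed only through CLL-1390, so the median difference is given over all 33 members without the filter, where it was 0.31, against 0.05 over all genes on the array. Members that define platelets most closely were not among those called. ITGA2B, the platelet fibrinogen receptor's alpha chain, read 8.13 in CLL-1390, against 7.51 to 8.12 in the other lines, GP9 read 7.89 in CLL-1390, against 7.60 to 8.78 in the other lines, and TUBB1, the megakaryocyte tubulin, read 7.94 in CLL-1390, against 7.41 to 8.10 in the other lines. The probe sets of GP1BA, GP6, PPBP, VWF and CLEC1B did not reach log2 7 in any line. CD9, a member named after its values were seen, went the other way. It read 6.95 in CLL-1390, against 10.94 in 17-71, 6.95 in CL-1, 9.33 in GL-1 and 9.10 in CLGL-90. Named after their values were seen, SELP, the platelet adhesion receptor P-selectin, read 7.65 in CLL-1390, against 6.02 to 6.33 in the other lines, and NFE2, a transcription factor of platelet release, read 8.87 in CLL-1390, against 5.53 in 17-71, 5.10 in CL-1, 8.74 in GL-1 and 5.55 in CLGL-90, where GL-1 overlapped CLL-1390.

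Of 23 endothelial genes on the array 13 passed and 3 were called above, beside 0.605% of all genes that passed. MMRN1 and ESAM are also on the platelet list, and CD34 is also on the progenitor list. All of them are marker genes chosen with earlier results of these data known, so this count is no test either. The median difference of the endothelial list was 0.10 without the filter. The members that are most particular to endothelium were flat or dim: CDH5, the junction cadherin, read 7.28 in CLL-1390, against 7.23 to 7.55 in the other lines, KDR, a receptor for vascular growth factor, read 6.64 in CLL-1390, against 6.53 to 7.01 in the other lines, and TIE1 read 7.47 in CLL-1390, against 7.05 to 7.71 in the other lines. PECAM1, TEK and VWF did not reach log2 7 in any line. ENG, endoglin, was named after its values were seen and lay at 8.07 in CLL-1390, against 5.37 in 17-71, 5.15 in CL-1, 7.51 in GL-1 and 5.24 in CLGL-90, high in CLL-1390 and GL-1. The arrays measured RNA of whole cultures, in which a small share of cells with much of an RNA and many cells with little of it cannot be told apart.

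**Figure D2:**
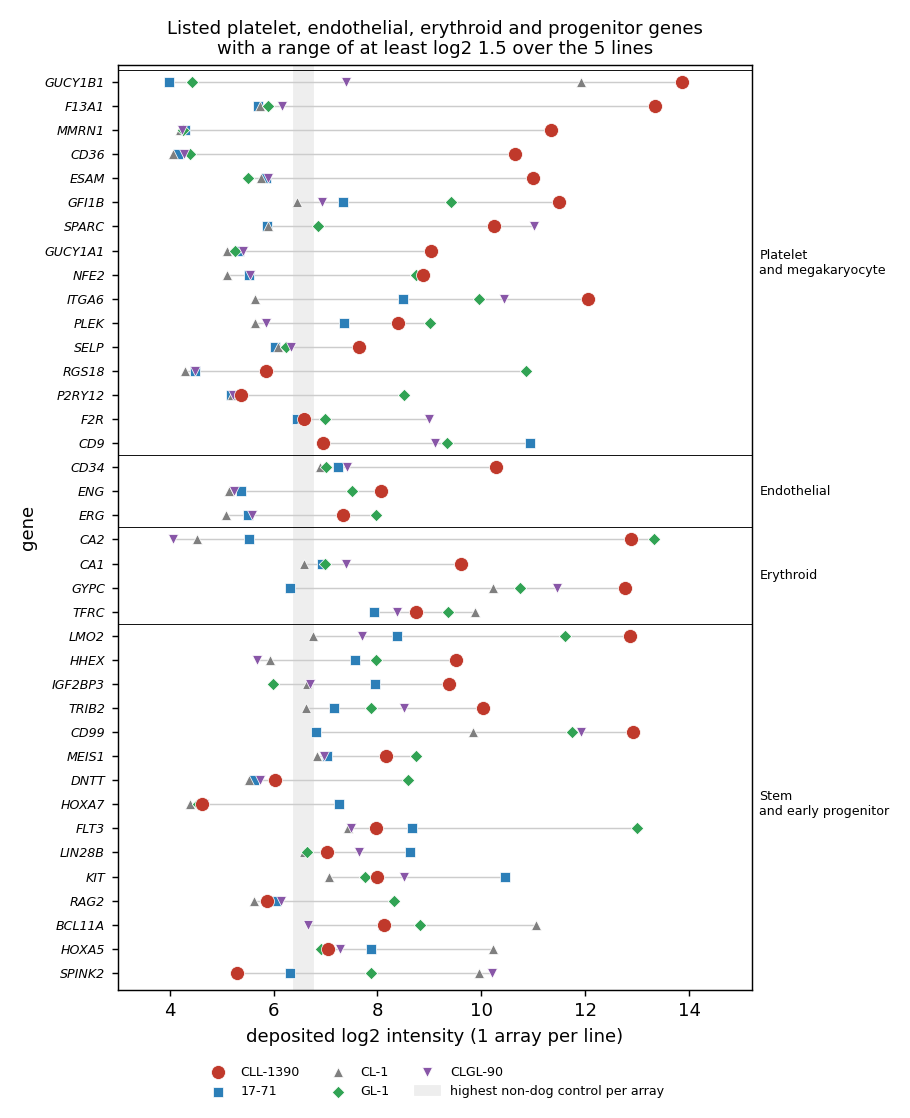
Listed platelet, endothelial, erythroid and progenitor genes whose values span at least log2 1.5 over the 5 lines (38 genes, each shown once). The horizontal axis is the deposited log2 intensity, points are single arrays, and the grey band spans the top non-dog controls. CLL-1390 stands apart to the right for F13A1, MMRN1, CD36 and ESAM, and it falls among the other lines for FLT3, KIT and RAG2.

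Among progenitor genes, CD34, the surface sialomucin of blood progenitors and endothelium, was called. It lay at 10.27 in CLL-1390, against 7.23 in 17-71, 6.89 in CL-1, 7.01 in GL-1 and 7.41 in CLGL-90, a gap of 2.86. The further probe set of CD34 gave 11.28 in CLL-1390, against 6.35 to 6.98 in the other lines, a gap of 4.30, so both probe sets separated CLL-1390 from all other lines. Of the 30 genes on the array in the list of stem and early progenitor genes, 22 passed and CD34 alone was called. Among all genes that passed, 0.605% were called above. CD34 is also a marker gene, chosen with earlier results of these data known. The median difference of that list was 0.18 without the filter. Members named after their values were seen were LMO2, a bridging protein of blood stem cell transcription complexes, at 12.87 in CLL-1390, against 8.37 in 17-71, 6.76 in CL-1, 11.60 in GL-1 and 7.71 in CLGL-90, and HHEX, a homeobox factor of early blood cells, at 9.51 in CLL-1390, against 7.57 in 17-71, 5.94 in CL-1, 7.97 in GL-1 and 5.69 in CLGL-90. CLL-1390 was highest for both, with GL-1 next. MYCN, a relative of MYC, gave 7.73 in CLL-1390, against 6.38 to 6.57 in the other lines by the probe set used, but its further probe set gave 10.19 in CLL-1390, against 3.66 to 4.99 in the other lines, a gap of 5.20 (3.43 bounded). KIT, the stem cell factor receptor, read 7.99 in CLL-1390, against 7.07 to 10.46 in the other lines, FLT3 read 7.98 in CLL-1390, against 7.44 to 13.0002 in the other lines, and DNTT, the enzyme that adds bases at receptor gene joints, read 6.04 in CLL-1390, against 5.54 to 8.59 in the other lines, so CLL-1390 was not the highest line for these.

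In the erythroid list 10 genes passed and 1 was called, beside 0.605% called above among all genes that passed. CA1, the carbonic anhydrase of red cells, lay at 9.61 in CLL-1390, against 6.94 in 17-71, 6.58 in CL-1, 6.996 in GL-1 and 7.40 in CLGL-90, a gap of 2.22. Its further probe sets gave gaps of 5.27 (2.07 bounded) and 4.51 (2.21 bounded), with all 4 other lines under the controls. RHAG, a membrane protein of the Rh complex of red cells named after its values were seen, lay at 7.71 in CLL-1390, against 4.91 in 17-71, 4.99 in CL-1, 5.01 in GL-1 and 5.40 in CLGL-90, and its gap of 2.31 became 0.95 once bounded. Over the 13 erythroid genes on the array the median difference was 0.34 without the filter. GATA1, the transcription factor of red cells and megakaryocytes, was named after its values were seen and read 8.36 in CLL-1390, against 7.31 to 7.57 in the other lines. The further probe sets of GATA1 had gaps above of 1.78 and 2.44 (2.22 bounded). KLF1, a red cell factor, read 8.10 in CLL-1390, against 6.81 to 6.97 in the other lines. CA2, a related carbonic anhydrase, lay at 12.87 in CLL-1390, against 5.54 in 17-71, 4.53 in CL-1, 13.32 in GL-1 and 4.06 in CLGL-90, so GL-1 stood above CLL-1390 there. ALAS2, the heme synthesis enzyme of red cells, read 7.86 in CLL-1390, against 7.56 to 7.93 in the other lines, and was flat. The probe sets of the members SLC4A1, EPB42 and HEMGN did not reach log2 7 in any line.

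In the list of T-lineage genes, 25 of 28 on the array passed and 0 were called in either direction. The median difference was -0.06 without the filter. Of all genes that passed 0.605% were called above and 0.34% below, so a count of 0 says little for a list of this size. The members furthest from the median of the other lines were CD3D, CD28, CTLA4 and SH2D1A. CD28, the main costimulatory receptor, lay at 6.32 in CLL-1390, against 6.41 in 17-71, 11.06 in CL-1, 8.31 in GL-1 and 10.69 in CLGL-90. CTLA4, its inhibitory relative, lay at 4.91 in CLL-1390, against 5.44 in 17-71, 10.40 in CL-1, 5.02 in GL-1 and 12.20 in CLGL-90, and SH2D1A, the adaptor of SLAM receptors, at 4.24 in CLL-1390, against 4.01 in 17-71, 9.80 in CL-1, 3.94 in GL-1 and 10.98 in CLGL-90. These were high in CL-1 and CLGL-90 and under the highest control in CLL-1390. Named after their values were seen, CD6 read 8.66 in CLL-1390, against 6.93 to 7.18 in the other lines, and UBASH3A, a phosphatase of T-cell signalling, read 8.53 in CLL-1390, against 5.66 to 6.83 in the other lines, with CLL-1390 highest by less than log2 2. CD3E read 8.48 in CLL-1390, against 8.13 in 17-71, 7.81 in CL-1, 7.91 in GL-1 and 10.24 in CLGL-90. Its further probe set read 8.58 in CLL-1390, against 5.92 in 17-71, 5.53 in CL-1, 6.18 in GL-1 and 12.80 in CLGL-90, so it set CLL-1390 above 3 lines that lay under the controls.

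Of the T-lineage transcription factors, 21 of 28 on the array passed and 1 was called, beside 0.605% called above among all genes that passed. ZBTB16, the zinc finger factor PLZF of innate-like T cells and blood progenitors, lay at 11.24 in CLL-1390, against 6.50 in 17-71, 8.07 in CL-1, 6.43 in GL-1 and 6.64 in CLGL-90, a gap of 3.17 to CL-1. Its further probe set was flat, at 7.39 in CLL-1390, against 7.12 to 7.41 in the other lines, so the probe sets of ZBTB16 disagree. LEF1, the Wnt-responsive factor of thymocytes, lay at 10.83 in CLL-1390, against 4.94 in 17-71, 4.45 in CL-1, 9.002 in GL-1 and 4.95 in CLGL-90. Its gap of 1.83 to GL-1 was not called, and the further probe set of LEF1 gave the same order with a gap of 1.67. TOX, a factor of thymocyte development named after its values were seen, lay at 11.72 in CLL-1390, against 7.31 in 17-71, 4.13 in CL-1, 10.63 in GL-1 and 7.92 in CLGL-90, again with GL-1 next to CLL-1390. The median difference over this list was 0.12 without the filter.

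**Figure D3:**
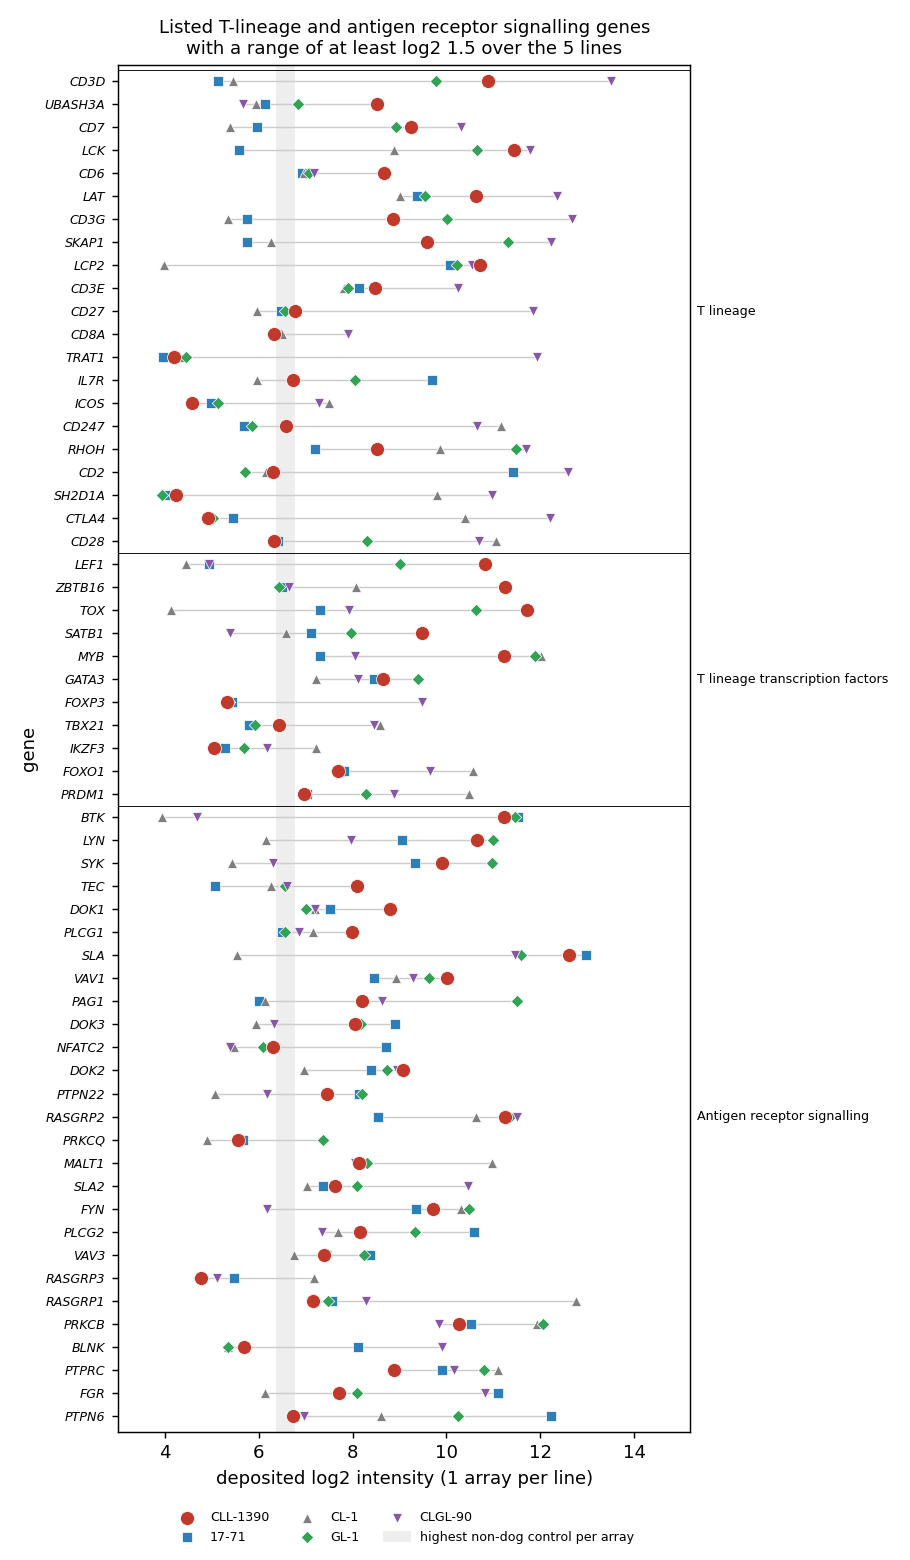
Listed lymphoid genes whose values span at least log2 1.5 over the 5 lines (59 genes), on the deposited log2 scale with 1 point per array and a grey band over the highest non-dog controls. CLL-1390 lies with GL-1 and CLGL-90 for CD3D, CD7 and LCK, and with the dim lines for CD2, CTLA4 and SH2D1A.

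Genes of the other lymphoid and myeloid classes gave few calls, but of all genes that passed only 0.605% were called above and 0.34% below. Lists this short would hold few calls at those shares, so the counts say little about these classes. None of 22 B-lineage genes on the array was called, and their median difference was -0.04 without the filter. CLL-1390 was the highest line for 0 of the 15 members that passed. BLNK read 5.68 and PIK3AP1 5.25 in CLL-1390, both under the highest control of its array. The probe sets of MS4A1, CD79B, CD22, BLK and POU2AF1 did not reach log2 7 in any line. The members BTK and SYK, kinases of B-cell receptor signalling, were high in CLL-1390. SYK lay at 9.91 in CLL-1390, against 9.33 in 17-71, 5.43 in CL-1, 10.97 in GL-1 and 6.30 in CLGL-90, inside the range of the 2 B-labelled lines. Of 29 myeloid genes 0 were called, and MS4A2, the beta chain of the IgE receptor, lay at 12.68 in CLL-1390, against 5.96 in 17-71, 5.54 in CL-1, 11.31 in GL-1 and 5.81 in CLGL-90, with GL-1 close below CLL-1390. LYZ, lysozyme, lay at 3.77 in CLL-1390, against 12.39 in 17-71, 3.28 in CL-1, 12.01 in GL-1 and 4.02 in CLGL-90, at background in CLL-1390. Of 20 cytotoxic genes only SRGN, the granule proteoglycan serglycin, was called, below, at 7.38 in CLL-1390, against 11.24 in 17-71, 11.19 in CL-1, 9.96 in GL-1 and 12.39 in CLGL-90. That gap was 2.58, and the further probe set of SRGN gave 2.62 (1.78 bounded). MHC class II genes, which present antigen, had a median difference of -0.78 over 13 genes without the filter and 0 calls. CD74, their invariant chain, lay at 5.89 in CLL-1390, against 13.74 in 17-71, 12.67 in CL-1, 5.66 in GL-1 and 7.62 in CLGL-90, so CLL-1390 was as dim as GL-1.

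The other large gaps above lay outside these lists or in lists with few calls. PIPOX, a peroxisomal enzyme that oxidises sarcosine and pipecolic acid, lay at 12.20 in CLL-1390, against 5.46 in 17-71, 5.53 in CL-1, 5.71 in GL-1 and 7.05 in CLGL-90, a gap of 5.15. One of its further probe sets gave 5.23 (4.70 bounded) and the other gave 0.64. GPR37, an orphan receptor best known from the nervous system, lay at 9.89 in CLL-1390, against 5.46 in 17-71, 5.47 in CL-1, 5.69 in GL-1 and 5.86 in CLGL-90, a gap of 4.03 (3.13 bounded). Its further probe set gave 11.79 in CLL-1390, against 3.40 to 3.58 in the other lines, a gap of 8.21 (5.03 bounded). NEIL3, a DNA glycosylase, lay at 9.64 in CLL-1390, against 3.61 in 17-71, 3.73 in CL-1, 3.61 in GL-1 and 3.84 in CLGL-90. Its gap of 5.81 (2.88 bounded) became 1.59 when probe sets under log2 7 could also represent the gene, because another probe set then stood for it. TSPAN33, a tetraspanin, had 11.30 in CLL-1390, against 6.63 to 6.87 in the other lines. TMLHE, the first enzyme of carnitine synthesis, had 9.47 in CLL-1390, against 5.07 to 5.39 in the other lines, a gap of 4.08 (2.71 bounded).

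CD200, a membrane glycoprotein that restrains myeloid cells through its receptor, lay at 10.81 in CLL-1390, against 7.13 in 17-71, 7.23 in CL-1, 7.32 in GL-1 and 7.45 in CLGL-90, a gap of 3.35. Its 2 further probe sets gave gaps of 5.79 (2.97 bounded) and 3.97, so 3 probe sets of CD200 put CLL-1390 apart from every other line. DSTN, destrin, which takes actin filaments apart, lay at 12.16 in CLL-1390, against 6.69 in 17-71, 6.43 in CL-1, 8.94 in GL-1 and 7.08 in CLGL-90, with gaps of 3.31 and 2.83 by its further probe sets. PKIG, an inhibitor of protein kinase A, had 12.82 in CLL-1390, against 7.20 to 9.39 in the other lines, and INPP5A, an inositol phosphate phosphatase, had 10.76 in CLL-1390, against 5.77 to 7.41 in the other lines. FAT4, a giant cadherin, had 7.71 in CLL-1390, against 3.61 to 4.07 in the other lines, a gap of 3.64 that became 0.95 once bounded. CAV2, caveolin 2, had 9.37 in CLL-1390, against 4.54 to 5.34 in the other lines. Its gap of 4.03 (2.61 bounded) turned to -0.02 without the filter, when another probe set stood for it. The remaining genes among the 25 largest gaps were GPRASP1, GPR85, C14H1orf35, ARMCX5, KRT23, OAF and B3GALT2, with gaps between 3.22 and 4.02. Once bounded, the gaps of ARMCX5 and B3GALT2 were 1.78 and 0.73, under log2 2, and those of the other 5 were 2.11 to 3.70.

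Cell cycle genes held a call in each direction. CDK6, a kinase that drives cells out of G1 together with D cyclins, lay at 11.37 in CLL-1390, against 6.64 in 17-71, 7.70 in CL-1, 7.83 in GL-1 and 8.37 in CLGL-90, a gap of 3.002 to CLGL-90. CCND2, cyclin D2, a partner of that kinase, lay at 7.16 in CLL-1390, against 14.19 in 17-71, 13.41 in CL-1, 12.37 in GL-1 and 13.40 in CLGL-90, a gap below of 5.21. Neither gene has a further probe set that passed. Of the 17 genes on the array in the list of G1 cyclins and kinases these 2 were called, and the median difference was -0.01 without the filter. Named after their values were seen, CCND1, cyclin D1, read 6.85 in CLL-1390, against 12.34 in 17-71, 9.04 in CL-1, 7.67 in GL-1 and 7.88 in CLGL-90, and CCND3, cyclin D3, read 10.01 in CLL-1390, against 8.62 in 17-71, 8.74 in CL-1, 10.16 in GL-1 and 9.21 in CLGL-90. CLL-1390 was lowest for CCND1 and close to GL-1 for CCND3. CDK4, the kinase related to CDK6, read 12.70 in CLL-1390, against 12.40 to 13.24 in the other lines. Mitosis and DNA replication genes had 0 calls of 30, beside 0.605% above and 0.34% below over all genes, so that count says little.

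Genes below every other line were led by ANXA1, annexin A1, a phospholipid-binding protein that damps inflammation. It lay at 5.11 in CLL-1390, against 12.30 in 17-71, 11.92 in CL-1, 12.67 in GL-1 and 12.19 in CLGL-90, a gap of 6.80 (5.22 bounded). Both further probe sets of ANXA1 also put CLL-1390 lowest, by 5.99 (4.80 bounded) and 2.48. ANXA6, a related annexin, lay at 6.21 in CLL-1390, against 10.08 in 17-71, 9.94 in CL-1, 11.76 in GL-1 and 10.51 in CLGL-90, a gap of 3.74 (3.25 bounded), and its further probe sets gave 2.87 (2.62 bounded) and 2.53 (1.88 bounded). ANXA11 lay at 8.75 in CLL-1390, against 11.51 in 17-71, 12.33 in CL-1, 12.56 in GL-1 and 11.91 in CLGL-90, a gap of 2.76, with 2.38 (2.32 bounded) by its further probe set. These 3 were the called ones of 11 annexins on the array, of which 10 passed. The family was assembled after its values were seen, and 0.34% of all genes that passed were called below. ANXA5 lay at 13.02 in CLL-1390, against 7.27 in 17-71, 10.23 in CL-1, 13.36 in GL-1 and 12.37 in CLGL-90, so CLL-1390 was among the high lines for that annexin. ANXA2 lay at 7.73 in CLL-1390, against 7.21 in 17-71, 8.67 in CL-1, 12.72 in GL-1 and 8.01 in CLGL-90, and only GL-1 stood apart there.

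**Figure D4:**
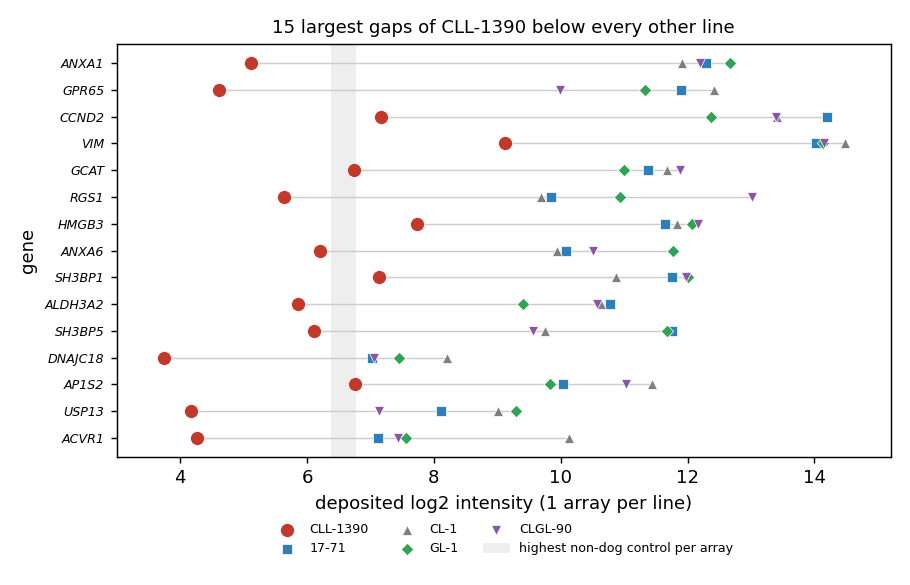
The 15 genes in which CLL-1390 stood furthest below every other line, on the deposited log2 scale with 1 point per array and a grey band over the highest non-dog controls. CLL-1390 sits to the left in each row, by 6.80 for ANXA1 and by 2.84 for ACVR1.

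VIM, vimentin, the intermediate filament of blood and mesenchymal cells, lay at 9.11 in CLL-1390, against 14.02 in 17-71, 14.48 in CL-1, 14.14 in GL-1 and 14.15 in CLGL-90, a gap of 4.91. The other 4 lines lay within log2 1 of each other there, and CLL-1390 was still well above its controls. GPR65, a proton-sensing receptor of lymphocytes, lay at 4.61 in CLL-1390, against 11.90 in 17-71, 12.42 in CL-1, 11.33 in GL-1 and 9.99 in CLGL-90, a gap of 5.38 (3.30 bounded). RGS1, which switches off G proteins behind chemokine receptors, lay at 5.64 in CLL-1390, against 9.85 in 17-71, 9.68 in CL-1, 10.93 in GL-1 and 13.02 in CLGL-90, a gap of 4.04 (2.98 bounded) that its further probe set shared by at least log2 1. HMGB3, a chromatin protein, lay at 7.74 in CLL-1390, against 11.64 in 17-71, 11.83 in CL-1, 12.07 in GL-1 and 12.16 in CLGL-90, a gap of 3.90, with 4.999 (3.18 bounded) by its further probe set. GCAT, an enzyme of threonine breakdown, lay at 6.75 in CLL-1390, against 11.38 in 17-71, 11.68 in CL-1, 11.004 in GL-1 and 11.88 in CLGL-90, a gap of 4.26. The remaining genes among the 15 largest gaps below were ALDH3A2, DNAJC18, AP1S2 and ACVR1, with gaps between 2.84 and 3.56 (2.71 bounded). DNAJC18 and ACVR1 had bounded gaps of 0.32 and 0.42, since CLL-1390 lay under its controls.

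ADA, adenosine deaminase, an enzyme whose loss stops lymphocyte development, lay at 8.19 in CLL-1390, against 11.55 in 17-71, 10.83 in CL-1, 11.74 in GL-1 and 10.32 in CLGL-90. The gap was 2.13, and its 3 further probe sets gave 2.11 (0.14 bounded), 1.67 and 1.54, so 4 of 4 probe sets put CLL-1390 lowest. ADA was the 1 called gene of 30 on the array in the list of drug transport and nucleoside metabolism. CD70, the ligand of the costimulatory receptor CD27, lay at 5.66 in CLL-1390, against 9.91 in 17-71, 12.13 in CL-1, 7.78 in GL-1 and 11.56 in CLGL-90, a gap of 2.12 that became 1.08 once bounded. It was the 1 called gene of 36 in the NF-kB and TNF family list. Cytokine receptors had 0 calls of 40 on the array, with IFNGR2, a chain of the interferon gamma receptor, at 7.33 in CLL-1390, against 12.02 in 17-71, 9.48 in CL-1, 12.57 in GL-1 and 7.82 in CLGL-90, and IFNAR1, of the type I interferon receptor, at 7.02 in CLL-1390, against 8.42 in 17-71, 10.69 in CL-1, 9.29 in GL-1 and 8.38 in CLGL-90. By these probe sets CLL-1390 was lowest for both by less than log2 2. The 3 further probe sets of IFNGR2 put CLGL-90 lowest instead. STAT5A, a transcription factor that acts after cytokine receptors, lay at 10.65 in CLL-1390, against 7.95 in 17-71, 8.86 in CL-1, 9.07 in GL-1 and 7.23 in CLGL-90, highest in CLL-1390 by 1.57. Over all 32 lists, 11 held a called gene and 21 held none, and 17 of the 834 listed genes on the array were called. Without the filter 16 listed genes were called, beside 61 above and 36 below of all 15115 genes on the array. The listed calls include the markers F13A1, MMRN1, CD36, ESAM and CD34, chosen with earlier results of these data known. A count of 0 or 1 in a single list says little about that list.

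Other probe sets of the same gene are the only repeat measurement within an array. Of the 64 genes above, 25 had 39 further probe sets that passed, and 36 of those 39 (92.3%) put CLL-1390 highest by at least log2 1, against 127 of 7927 (1.6%) for all other genes. All further probe sets did so in 22 of the 25 genes. Of the 36 genes below, 25 had 44 further probe sets, and 28 (63.6%) put CLL-1390 lowest by at least log2 1, against 122 of 7922 (1.54%) for all other genes. All further probe sets did so in 16 of those 25 genes. The other genes lack the gap in their main probe set, so their low shares follow largely from how genes were called. A further probe set had to reach log2 7 on an array, so a dim one that disagreed was left out. Without that filter, 61 genes were called above and 36 below. Then 42 of 56 further probe sets repeated the gap above and 28 of 61 the gap below. The probe sets of SH3BP1, a protein that turns off Rac, disagreed. Its probe set of highest mean gave 7.14 in CLL-1390, against 10.87 to 12.01 in the other lines, while its 3 further probe sets had gaps below of -0.26, -0.27 and -0.33. SH3BP5 had a gap of 3.46 (2.86 bounded), with 0.47 and 0.01 by its further probe sets. USP13 had a gap of 2.96 (0.43 bounded), which 0 of its 2 further probe sets repeated.

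The called genes were placed on the reference gene table of the dog. Of the 64 genes above, 13 (20.3%) lie on the chromosome that carries CDK6, which holds 162 (1.55%) of the 10481 genes placed, and no other chromosome held more than 5. This was looked at after the values were seen. The 13 genes are C14H1orf35, CAV2, CDK6, CHN2, CROT, FKBP9, GNG11, GPR37, GPR85, MKLN1, SLC25A13, SLC35B4 and TSPAN33. CROT, which moves fatty acids out of peroxisomes, lay at 11.18 in CLL-1390, against 8.53 in 17-71, 8.66 in CL-1, 8.93 in GL-1 and 8.75 in CLGL-90, and 3 of its 3 further probe sets repeated the gap. MKLN1, muskelin, lay at 12.63 in CLL-1390, against 9.99 in 17-71, 9.29 in CL-1, 10.39 in GL-1 and 9.88 in CLGL-90, also repeated by 3 of 3. SLC25A13, a mitochondrial aspartate and glutamate carrier, lay at 12.12 in CLL-1390, against 9.34 in 17-71, 8.43 in CL-1, 9.28 in GL-1 and 8.33 in CLGL-90. These 3 genes were well above the controls in all 5 lines, so their gaps do not rest on values at background. For GNG11, CAV2 and GPR37 all other lines lay under the controls. The gap of GNG11 was 2.30 (1.31 bounded), and that of CAV2 turned to -0.02 without the filter.

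CLL-1390 was the highest line for 70 of the 162 genes of that chromosome (43.2%), against 20.4% of genes elsewhere. On single chromosomes elsewhere that share reached 34.4% and 33.3%, and CLL-1390 was the lowest line for up to 43.9% of the genes of a chromosome. The median difference of CLL-1390 from the other lines was 0.32 over these 162 genes and 0.25 over the 149 that remain without the 13 called, against 0.03 over the genes of other chromosomes pooled. Shifts of this size were not confined to CLL-1390 or to that chromosome. Other single chromosomes had medians from -0.44 to 0.25 in CLL-1390, and the highest chromosome median was 0.59 in 17-71 and 0.65 in CL-1, each on another chromosome. SNX10 was the only gene of the chromosome that carries CDK6 called below.

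**Figure D5:**
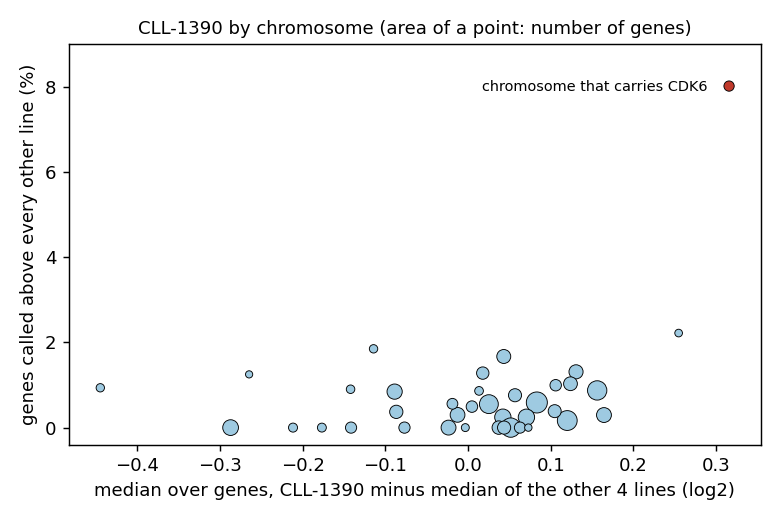
Each point is 1 of the 39 chromosomes of the reference gene table with at least 50 measured genes, its area the number of genes. The horizontal axis is the median log2 difference of CLL-1390 from the median of the other 4 lines and the vertical axis the percent of genes called above every other line. The chromosome that carries CDK6 lies at 0.32 and 8.02%, against at most 2.22% on any other.

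Called genes that neighbour each other in the reference table formed 5 pairs, all of them above. GPRASP1, ARMCX5 and GPRASP2, members of a family that includes receptor-sorting proteins, follow each other with no other protein-coding gene between. GPRASP1 lay at 8.87 in CLL-1390, against 4.42 in 17-71, 4.74 in CL-1, 4.85 in GL-1 and 4.47 in CLGL-90, ARMCX5 had 8.54 in CLL-1390, against 3.11 to 5.06 in the other lines, and GPRASP2 had 9.45 in CLL-1390, against 6.42 to 6.60 in the other lines, so CLL-1390 was the only high line for all 3. FAT4 adjoins ANKRD50, which had 9.67 in CLL-1390, against 5.05 to 6.60 in the other lines. RMDN3, with 12.78 in CLL-1390, against 9.31 to 10.21 in the other lines, adjoins GCHFR, the regulator of a cofactor synthesis enzyme, with 12.97 in CLL-1390, against 7.94 to 10.54 in the other lines. ZNF488 and GDF10 have 2 genes between them. ZNF488 read 9.22 in CLL-1390, against 6.12 to 6.35 in the other lines, and GDF10, a growth factor, read 9.17 in CLL-1390, against 6.44 to 6.73 in the other lines.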

How the data were processed

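Total RNA of 5 canine lymphoid cell lines was measured on 1 Affymetrix canine array each. The authors deposited 1 log2 intensity per probe set and array. The submitters' processing notes name GCRMA as the tool, and the sources used here do not state its version or settings. GCRMA adjusts background by probe sequence and normalises between arrays, which can set values near background to a common floor. The 111 AFFX control probe sets were dropped from 43035. Of the 42924 kept, 29254 carried 1 symbol and stood for genes, 439 carried several and 13231 carried none in the annotation. Array medians ran from 6.87 to 7.00. A RefSeq gene table (assembly UU_Cfam_GSD_1.0) was used only for names, chromosomes and neighbours. It held the gene ID of 94.6% of the probe sets with 1 symbol.

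Gaps, list counts and medians were computed in Python 3.11.15 with pandas 2.3.3 and numpy 2.4.6, after the code was tested on simulated data. The text names the 25 largest gaps above and 15 below, 6 marker genes, each called member of 32 gene lists, and called neighbours. For lists without a call the rule took up to 4 members by difference from the other lines' median. Only some of those members are given in the text, and for several lists none. Genes outside this rule are said to be chosen after their values were seen, apart from genes named only as uncalled members or for a disagreement. Markers, lists and rule were chosen with earlier results of these data known. Alternatives were other gaps, filters, floors, probe set choices, comparison with the median, and leaving out each line.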

Additional observations from a re-analysis of the deposited data

How the results depend on the processing

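The number of genes above every other line (64) and below (36) moved with the size of gap asked for, to 209 and 172 at log2 1 and to 28 and 13 at log2 3, and to 225 and 202 as differences from the median of the other lines. Leaving out each other line in turn gave 68 to 118 genes above, the most without GL-1, and 53 to 64 below, the most without CL-1. Fewer lines to exceed can only add genes by construction. The other settings gave 53 to 85 above and 27 to 44 below. Further probe sets that repeated a gap (36 above, 28 below) numbered 106 and 96 at log2 1, 13 and 10 at log2 3, 143 and 134 against the median, 56 above by the most variable probe set, and 38 to 59 above and 39 to 47 below without 1 line. Taking the median of a gene's probe sets leaves no further probe set, so it gave no such value. Called genes in the lists numbered 17, and 19 to 32 without 1 line, with 32 without GL-1. Over 47 called named genes, 542 of the values under other settings kept the call, 14 kept the direction only, and 2 reversed: CAV2 at -0.018 without the filter and SH3BP1 at -0.057 with the median of its probe sets. Of 429 list medians over 13 settings, 18 moved by log2 0.5 or more. The platelet median was 1.42 with the filter, 0.31 without it and 3.86 with a filter at log2 9, and the MHC class II median was -1.14 with the filter, -0.02 without 17-71 and -2.39 without GL-1. No paired analysis was possible because the labels give no replicate numbers and each line has 1 array. With 1 array a line, no spread between cultures is known, and differences among values under the non-dog controls carry no size.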

Other observations

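Genes that CLL-1390 shared with 1 other line were counted in the same way, by a gap of at least log2 2 of both lines from the remaining 3. With GL-1 there were 28 genes above and 10 below, with CL-1 11 and 21, with CLGL-90 9 and 5, and with 17-71 1 and 5. The genes of this and the following paragraphs were chosen after their values were seen. DACH1, a transcriptional corepressor, lay at 11.46 in CLL-1390, against 6.50 in 17-71, 5.57 in CL-1, 10.92 in GL-1 and 5.77 in CLGL-90, so GL-1 matched CLL-1390. CCR9, the receptor that guides T cells to gut and thymus, lay at 11.16 in CLL-1390, against 6.79 in 17-71, 6.50 in CL-1, 11.50 in GL-1 and 6.93 in CLGL-90, with the same 2 lines high. TFPI, which inhibits the tissue factor pathway of clotting, lay at 11.03 in CLL-1390, against 6.19 in 17-71, 6.19 in CL-1, 9.08 in GL-1 and 6.09 in CLGL-90, again highest in CLL-1390 with GL-1 next. GNAI1, an inhibitory G protein chain, was shared with CL-1, at 11.36 in CLL-1390, against 5.14 in 17-71, 10.28 in CL-1, 4.28 in GL-1 and 5.54 in CLGL-90. BCL2A1, a survival relative of BCL2, was low with CL-1 only, at 6.28 in CLL-1390, against 13.85 in 17-71, 5.92 in CL-1, 11.34 in GL-1 and 13.36 in CLGL-90. CTSW, a cathepsin of cytotoxic cells, was shared with CLGL-90, at 10.88 in CLL-1390, against 6.57 in 17-71, 6.59 in CL-1, 7.29 in GL-1 and 9.49 in CLGL-90.

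Read through the most variable probe set instead, 21 further genes were called above and 9 below. HSPB1, a small heat shock protein, read 11.005 in CLL-1390 by that probe set, against 4.68 in 17-71, 5.05 in CL-1, 4.82 in GL-1 and 5.05 in CLGL-90, while the probe set of highest mean had a gap of only 0.67. CD9, a tetraspanin of platelets and B cells, read 4.54 in CLL-1390, against 10.70 in 17-71, 8.05 in CL-1, 9.26 in GL-1 and 10.01 in CLGL-90. By this probe set CLL-1390 was the lowest line for CD9, a member of the platelet list, by 3.51 (1.36 bounded).

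Of 6646 probe sets that passed and carried no gene name or several, 50 were above every other line and 24 below. The largest gaps were 7.76 above, with 10.86 in CLL-1390 against 2.99 to 3.11 in the other lines, and 7.45 below, with 5.27 in CLL-1390 against 12.71 to 14.06. Their genes are not named here.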
